A study of Mus musculus with 6 samples.

Results

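Azurophil granules, also called primary granules, are the first granules that a neutrophil makes. They are filled during the promyelocyte stage in the bone marrow with myeloperoxidase and with serine proteases that digest engulfed microbes, and mature neutrophils carry the finished proteins while making little of the RNA. The proteases are kept in check by inhibitors inside the same cell, and the proteoglycan serglycin packs the positively charged enzymes into the granule. In adult mice the spleen keeps some granulocyte production, so RNA of these genes can be read there.

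The genes followed here were 9 of the 24906 listed in the deposited table, taken by gene symbol. Mpo encodes myeloperoxidase, Elane neutrophil elastase, Prtn3 proteinase 3, Ctsg cathepsin G and Prss57 a serine protease of the same granules. Ms4a3 encodes a membrane protein of granulocyte and monocyte precursors. Serpinb1a encodes an inhibitor of elastase, proteinase 3 and cathepsin G, Cst7 encodes cystatin F, an inhibitor of cysteine cathepsins, and Srgn encodes serglycin. All 9 were found in the table, and all 9 passed the filter on low values (3 or more libraries at 10 or above, in normalized counts). Each of them was above 10 in every library of both genotypes.

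Polyadenylated RNA of spleen cells was sequenced from 6 mice of the C57BL/6J strain, 12 to 16 months old, with 1 library for each. The D3TA group held 3 mice that carried a CRISPR/Cas9-made change in Ccnd3, the gene for cyclin D3, in which threonine 283 is replaced by alanine (T283A). The 3 WT mice were age-matched and without that allele. The line was kept as heterozygotes, the allele is present in the whole animal and not in one cell type, and mice of this age have a severe myeloproliferative neoplasm according to the series record. The comparison asked how RNA of the azurophil granule genes differed between the spleens of the 2 genotypes.

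The libraries held 14944622 to 19456838 reads assigned to genes, and 3 reads corresponded to a normalized count of 2.59 to 3.36. Hemoglobin genes took 6.39% to 6.75% of reads in D3TA-1, D3TA-2 and WT-3 and 1.40% to 1.91% in the other 3. Y-linked Ddx3y was at 1116 in D3TA-3 and 1162 in WT-1 and at 20.1 or less in the other 4, so each group held 1 library with clear Y-linked reads. WT-2 had 8449 listed genes at 0, the most of the 6. Summed markers of B cells, the main cell of a normal spleen, were present in every library, at 11018 to 34305 in D3TA and 60768 to 76335 in WT.

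Upstream windows of 4 enzyme genes and of Ms4a3 are shown first, because RNA of these genes ran in parallel from library to library. Windows of 250 bases before the start came from RefSeq on GRCm38.p6, which held 7 of the 9 genes in 8 windows. Prss57 and Serpinb1a had no window. Each sequence runs 5′ to 3′ on the gene's strand. In Mpo, Elane and Prtn3 an annotated exon begins before the RefSeq start, and the printed sequence stops 25 bases inside that exon. Capitals mark matches to 5 short patterns searched on both strands: GAGGAA, the core read by ETS factors such as PU.1; CAACNG, read by MYB; TGTGGT, read by RUNX factors; TATAAA, the TATA box; and TTGCNNAA, read by C/EBP factors.
Mpo (chr11:87793534-87793605, plus strand): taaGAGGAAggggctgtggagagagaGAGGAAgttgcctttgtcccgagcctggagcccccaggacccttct
Elane (chr10:79886062-79886271, plus strand): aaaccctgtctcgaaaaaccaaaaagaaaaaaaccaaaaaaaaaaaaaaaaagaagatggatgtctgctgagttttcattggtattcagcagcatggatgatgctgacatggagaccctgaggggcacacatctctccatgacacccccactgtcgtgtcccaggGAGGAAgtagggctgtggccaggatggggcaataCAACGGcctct
Prtn3 (chr10:79879417-79879638, plus strand): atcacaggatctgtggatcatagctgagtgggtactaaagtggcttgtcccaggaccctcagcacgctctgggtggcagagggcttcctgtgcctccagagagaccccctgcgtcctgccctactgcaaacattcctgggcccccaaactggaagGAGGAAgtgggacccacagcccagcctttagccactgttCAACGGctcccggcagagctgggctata
Ctsg (chr14:56102575-56102824, minus strand): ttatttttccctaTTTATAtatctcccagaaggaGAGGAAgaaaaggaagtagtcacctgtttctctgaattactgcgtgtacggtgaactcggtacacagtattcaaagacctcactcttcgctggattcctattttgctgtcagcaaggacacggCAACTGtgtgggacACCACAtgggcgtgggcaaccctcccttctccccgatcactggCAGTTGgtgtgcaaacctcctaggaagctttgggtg
Ms4a3 (chr19:11640852-11641101, minus strand): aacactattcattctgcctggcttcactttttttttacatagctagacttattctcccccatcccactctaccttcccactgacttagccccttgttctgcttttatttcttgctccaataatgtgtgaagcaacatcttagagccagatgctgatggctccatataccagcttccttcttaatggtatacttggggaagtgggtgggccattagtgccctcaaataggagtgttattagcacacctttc

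GAGGAA was in the windows of all 4 enzymes that had one, which makes 4 of 8. The other 4 windows of the set (Ms4a3, Cst7 and both of Srgn) did not hold it, and Prss57 and Serpinb1a could not be searched. The Ms4a3 window held no match to any of the 5 patterns. GAGGAA was found in 23.3% of all 32851 RefSeq windows of that length. The Elane and Prtn3 windows each carried GAGGAA followed by CAACGG, with 34 bases between the starts of the matches in Elane and 39 in Prtn3. The GAGGAA match began 85 bases before the RefSeq start in Elane, 95 before it in Prtn3, 216 before it in Ctsg, and 247 and 224 before it in Mpo. Because an annotated exon begins before that start, the last 178 bases of the Mpo window, 40 of Elane and 28 of Prtn3 are not printed. Distances to the first base of that exon are therefore shorter. In Elane CAACGG lies inside the exon, and in Prtn3 it spans the first base of the exon. CAACNG was in 5 of 8 windows (29.3% of all windows), TGTGGT in 3 (14%), TATAAA in 2 (12.4%) and TTGCNNAA in 0 (9.56%). These matches describe the letters of the windows, and binding was not measured.

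Mpo, which makes hypochlorous acid from hydrogen peroxide, lies on chromosome 11 (GRCm38, 87793581 to 87804413, plus strand, ENSMUSG00000009350). Its normalized counts were 15516, 8392 and 2457 in D3TA-1, D3TA-2 and D3TA-3, and 320.0, 333.5 and 332.5 in WT-1, WT-2 and WT-3. The D3TA values were spread widely and all lay far above the WT values, which were almost the same. The lowest D3TA library was 7.37 times the highest WT library. The coefficient of variation was 2.29% across the WT libraries, below the 5.39% to 5.79% that counting error alone gives at that depth. The difference was 4.38 ± 0.55 (SE) after log2 transformation of the normalized count plus 1, a fold of 20.8 with a 95% interval of 8.96 to 48.1. The limma adjusted p over all 15564 tested genes was 0.0945, and the unadjusted p was the smallest of all of them.

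Elane lies on chromosome 10 (79886247 to 79888215, plus strand, ENSMUSG00000020125). Counts were 8810, 4161 and 1782 in the D3TA libraries and 253, 173 and 402 in the WT libraries. All 3 D3TA values were above all WT values, and D3TA-1 was again the highest. The fold was 15.4, with a 95% interval of 6.81 to 34.9 and a limma adjusted p of 0.0945.

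Prtn3, the neighbour of Elane on chromosome 10 (79874476 to 79883174, plus strand, ENSMUSG00000057729), ends 3072 bases before Elane starts. It was read at 17437, 7987 and 2094 in D3TA and at 314, 588 and 678 in WT. Every D3TA library was above the WT range, and of the 9 genes Prtn3 had the widest spread among D3TA libraries, with D3TA-1 at 8.33 times D3TA-3. Its fold was 13.2 (95% interval 4.92 to 35.6, limma adjusted p = 0.0945).

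Prss57, also on chromosome 10 but on the minus strand (79781474 to 79790961, ENSMUSG00000020323), was the lowest of the 9 genes per kilobase of exon. It had normalized counts of 481, 305 and 89.0 in D3TA and 17.2, 16.8 and 31.9 in WT, the latter resting on 18, 15 and 33 reads. The groups did not overlap, and D3TA-3 was 2.79 times the highest WT library. A fold of 10.8 (95% interval 3.97 to 29.2, limma adjusted p = 0.112) was fitted.

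Ctsg lies apart from these on chromosome 14 (56099881 to 56102574, minus strand, ENSMUSG00000040314). Values were 1923, 932 and 375 in D3TA and 71.6, 147 and 188 in WT. The groups did not overlap, but the gap was small, with D3TA-3 at 1.99 times WT-3. Cathepsin G had the smallest fold of the 5 enzymes, 6.93 (95% interval 2.87 to 16.7, limma adjusted p = 0.163).

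Ms4a3, on chromosome 19 (11629496 to 11640851, minus strand, ENSMUSG00000024681), followed the enzymes although its product is not a protease. Normalized counts were 2508, 1565 and 382 in D3TA and 67.8, 160 and 203 in WT. The groups were separate, with D3TA-3 1.88 times WT-3, the narrowest gap of the 6 genes whose groups did not overlap. The fold was 8.73 (95% interval 3.22 to 23.7, limma adjusted p = 0.163).

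The inhibitors and the packing proteoglycan had overlapping groups. Serpinb1a (chromosome 13, 32842092 to 32851185, minus strand, ENSMUSG00000044734) was at 2802, 2540 and 1593 in D3TA and at 2034, 2496 and 3429 in WT. Its highest value was in WT-3 and its lowest in D3TA-3, and the groups overlapped throughout. The difference was -0.21 ± 0.33 (SE, log2), with a 95% interval from -0.93 to 0.52 and a limma adjusted p of 0.865.

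Cst7 (chromosome 2, 150570415 to 150578944, plus strand, ENSMUSG00000068129) ran the other way across the D3TA libraries, at 449, 724 and 1319 against 540, 678 and 533 in WT. D3TA-1, which had the highest enzyme values, had the lowest cystatin F value of all 6, and D3TA-3 had the highest. The fitted difference was 0.38 ± 0.39 (SE, log2; 95% interval -0.48 to 1.24; limma adjusted p = 0.778).

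Srgn (chromosome 10, 62493833 to 62527451, minus strand, ENSMUSG00000020077) was at 4336, 7343 and 8347 in D3TA and 6792, 8286 and 7140 in WT. D3TA-1 was the lowest of the 6, and the other D3TA libraries lay within or just above the WT range. The difference was -0.20 ± 0.32 (SE, log2; 95% interval -0.92 to 0.52; limma adjusted p = 0.870). For these 3 genes the intervals reach to differences of -0.93 and 1.24, so equal levels are not shown.

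**Figure D1:**
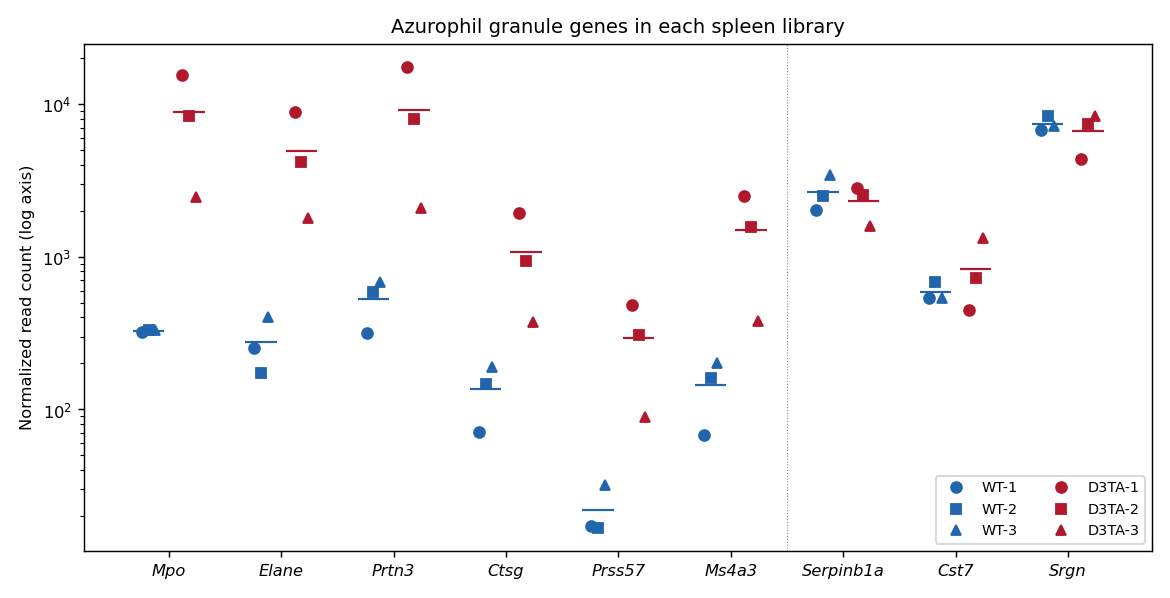
Normalized read counts (log axis) of the 9 genes in each of the 6 spleen libraries, WT in blue and D3TA in red; bars are group means and marker shapes give the library number. For the 6 genes left of the dotted line the lowest D3TA value is above the highest WT value, by 1.88 (Ms4a3) to 7.37 times (Mpo), while the groups overlap for the 3 genes on the right.

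Of the 9 genes, 6 had groups that did not overlap, all with D3TA higher, against 8.18% of all tested genes, and 0 had D3TA lower without overlap, against 6.84%. Scaled by library size alone the same 6 genes were separate, where 10.5% of all tested genes were higher without overlap (1628 higher and 774 lower, against 1273 and 1065 as deposited). A fold of at least 8 was fitted for 5 of 9, against 0.816% of tested genes, and 6 had an unadjusted p below 0.05 with D3TA higher, against 6.08% (0 lower, against 3.83%). The median difference was 3.13 for the 9 genes and 0.06 for all tested genes (log2). After adjustment over all genes limma called 0 of 15564 (0%), so 0 of 9, with 946 genes higher and 596 lower at an unadjusted p under 0.05. Without D3TA-3, the library with the lowest enzyme values of its group, the same test called the 6 (1.59% of tested genes called higher). With any other single library left out it called 0 of the 9. DESeq2 on the recovered reads called the 6 (1.83% of 18588 called higher). A term for Y-linked reads gave calls for 5 of the 9 (0.0835% of tested genes called higher) and a term for hemoglobin share for 2, Mpo and Elane (0.0643%). The quasi-likelihood test of edgeR and limma-voom called 0 genes.

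The differences were present within the classes of library that cut across genotype. Among the 4 libraries with Ddx3y under 100 (2 per genotype, with WT-2 at 20.1) the log2 difference was 5.10 for Mpo, 4.51 for Elane, 4.22 for Prtn3, 3.002 for Ctsg, 3.99 for Prss57 and 3.45 for Ms4a3. Between the 2 libraries above 100 it was smaller, at 2.94, 2.81, 2.73, 2.37, 2.31 and 2.48 in the same order. Among libraries with a high hemoglobin share (2 D3TA against WT-3) the log2 differences ran from 2.82 (Ctsg) to 5.10 (Mpo), and among those with a low share (D3TA-3 against 2 WT) from 1.86 (Ctsg and Ms4a3) to 3.08 (Elane). Cst7 was at 1.12 and 1.29 in the 2 classes that hold D3TA-3 and at 0.10 and -0.08 in those that hold D3TA-1 and D3TA-2. D3TA-3 differs from the other D3TA libraries in Y-linked reads, hemoglobin share and enzyme level at once, and these cannot be told apart.

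**Figure D2:**
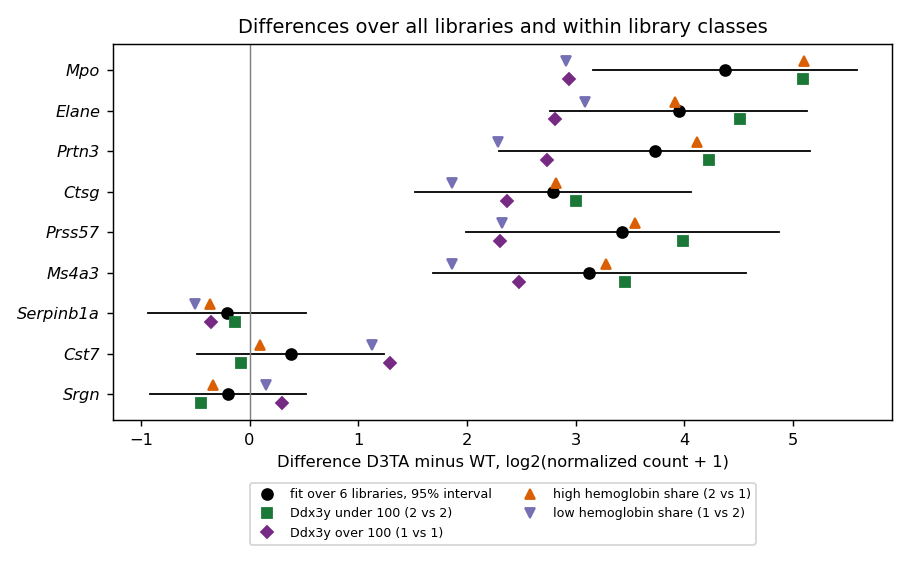
Log2 difference between the genotypes for each gene, D3TA minus WT, from normalized counts plus 1; black points with 95% intervals are the fit over 6 libraries, and coloured marks are plain mean differences within classes of library. For the first 6 genes each mark lies right of 0, from 1.86 to 5.10, whereas the intervals of Serpinb1a, Cst7 and Srgn span 0.

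To compare levels between genes, normalized counts were divided by the length of the merged exons. Per kilobase, Srgn was the highest of the 9 genes in each WT library, at 3372 ± 356 (SD, n = 3), followed by Serpinb1a at 1152 ± 309 and Cst7 at 592 ± 83.3. The enzymes came below them, with Prtn3 at 304 ± 109, Elane at 281 ± 118, Ctsg at 131 ± 57.3, Mpo at 96.0 ± 2.20 and Prss57 at 7.72 ± 3.03. The level of Ms4a3 was 76.2 ± 36.7. From Prtn3 down to Ms4a3 each gene's WT libraries overlapped with those of the next, while Srgn, Serpinb1a and Cst7 were each apart from the gene after them, as was Prss57 from Ms4a3.

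In D3TA the order was different. Prtn3 (5296 ± 4469) and Elane (4997 ± 3633) came first, then Srgn (3040 ± 950), Mpo (2567 ± 1910), Ctsg (1042 ± 759), Serpinb1a (1004 ± 276), Cst7 (842 ± 451), Ms4a3 (788 ± 566) and Prss57 (103 ± 69.0), all per kilobase (SD, n = 3). Only the last pair of neighbours in that order, Ms4a3 and Prss57, did not overlap across libraries. Prtn3 led in D3TA-1 and D3TA-2, while Srgn led in D3TA-3 as in the WT libraries. With the longest coding transcript as the length, the D3TA mean of Prtn3 was 8949, Ms4a3 moved from rank 8 to rank 5 in D3TA and Ctsg from rank 5 to rank 7. In WT, Ms4a3 (142) then came before Ctsg (135) and Mpo (120), so the order of these 3 depends on the length used.

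The 5 enzymes together made up 83.7%, 67.2% and 40.6% of the 9-gene total per kilobase in the D3TA libraries and 11.8%, 11.9% and 16.8% in the WT libraries. Srgn alone was 6.46%, 18.3% and 37.4% of it in D3TA and 59.9%, 59.0% and 50.2% in WT. The groups did not overlap on either measure. As a share of all reads the enzymes took 0.265%, 0.131% and 0.0450% in D3TA and 0.00615%, 0.00752% and 0.00869% in WT.

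**Figure D3:**
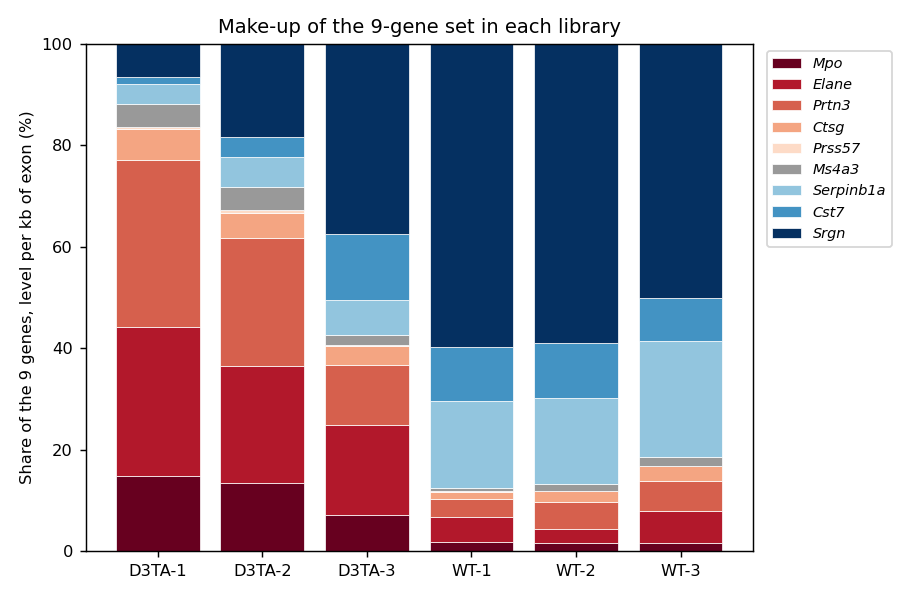
Share of each gene in the summed level per kilobase of exon of the 9 genes (%), 1 stacked bar per library. The 5 enzymes (dark red to pale) fill 40.6% to 83.7% of the bar in D3TA and 11.8% to 16.8% in WT, where Srgn (dark blue) fills 50.2% to 59.9%.

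Enzyme RNA was then set against the RNA of what holds the enzymes in check. The summed level of Elane, Prtn3 and Ctsg, the 3 proteases that the Serpinb1a product inhibits, was 17.2, 8.83 and 4.89 times that of Serpinb1a per kilobase in D3TA. In WT it was 0.575, 0.607 and 0.660 times. Thus in each WT library inhibitor RNA was more abundant than that of its 3 target proteases together, and in each D3TA library it was less abundant. Serglycin RNA was 5.09, 4.96 and 2.98 times the summed level of the 5 enzymes in WT, and 0.0772, 0.272 and 0.920 times in D3TA. These are RNA ratios in whole spleen cells, where lymphocytes, macrophages and other blood cells can also hold Srgn, Serpinb1a and Cst7 RNA, and fewer cells of a type and less RNA per cell cannot be told apart.

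All 36 ratios between pairs of the 9 genes were computed in each library, from normalized counts not divided by length. In 23 of them (63.9%) the D3TA and WT values did not overlap. The same share for ratios between other genes was not computed, and pairs that share a gene are not independent. For each of these the exact 2-sided permutation p was 0.10, the smallest that 3 against 3 allows, and 0.157 after Benjamini-Hochberg adjustment over the pairs. Of these 23, 16 join 1 of the 6 genes with 1 of the 3; they restate the split of the genes by overlap and are no separate result. Among them, the Mpo to Srgn ratio was 3.58, 1.14 and 0.294 in D3TA and 0.0471, 0.0403 and 0.0466 in WT, and Mpo to Serpinb1a was 5.54, 3.30 and 1.54 against 0.157, 0.134 and 0.0970.

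Among the 6 genes with higher D3TA values the median range of a ratio was 2.53-fold between the highest and the lowest library, and 6 of those 15 pairs were separate by genotype. Mpo to Ctsg was 8.07, 9.002 and 6.55 in D3TA and 4.47, 2.27 and 1.76 in WT, a fold of 2.996 in the ratio. Each D3TA library thus had more Mpo per Ctsg than each WT library. Elane to Ctsg was 4.58, 4.46 and 4.75 in D3TA and 3.53, 1.18 and 2.13 in WT, with a 1.06-fold range within D3TA and a 2.22-fold difference. Prtn3 to Ctsg was 9.07, 8.57 and 5.58 in D3TA against 4.39, 4.01 and 3.60 in WT (1.91-fold).

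Mpo was also higher relative to Ms4a3 and Prss57. The Mpo to Ms4a3 ratio was 6.19, 5.36 and 6.43 in D3TA and 4.72, 2.08 and 1.64 in WT (2.38-fold), and Mpo to Prss57 was 32.3, 27.5 and 27.6 against 18.6, 19.9 and 10.4 (1.93-fold). The last of the 6 pairs was Prtn3 to Ms4a3, at 6.95, 5.11 and 5.48 against 4.63, 3.67 and 3.34. Mpo, Elane and Prtn3 did not separate from one another, since Mpo to Elane was 1.76, 2.02 and 1.38 in D3TA and 1.26, 1.92 and 0.827 in WT, and Elane to Prtn3 was 0.505, 0.521 and 0.851 against 0.805, 0.295 and 0.593. Expressed as shares of the 5 enzymes per kilobase, Ctsg was 7.28%, 7.34% and 8.79% in D3TA and 11.4%, 18.7% and 16.7% in WT, and Mpo was 17.7%, 19.9% and 17.4% against 15.4%, 12.8% and 8.90%. Elane and Prtn3 together held 67.8% to 74.4% of the enzyme total in all 6 libraries.

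Between the other 3 genes 1 of 3 pairs separated: Cst7 to Srgn was 0.103, 0.0986 and 0.158 in D3TA and 0.0795, 0.0818 and 0.0746 in WT, a 1.49-fold difference. Cystatin F RNA was thus higher per serglycin RNA in each D3TA library.

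**Figure D4:**
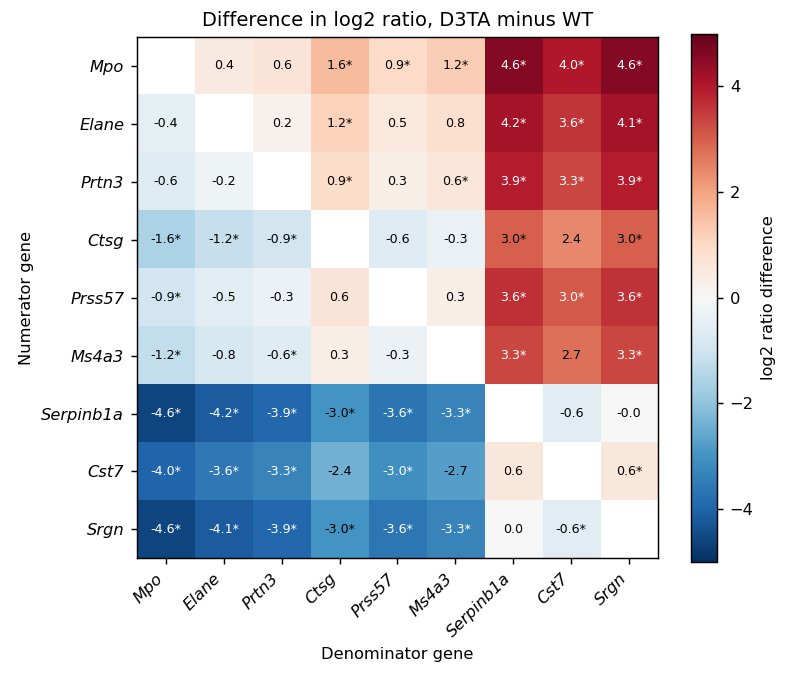
Difference D3TA minus WT in the log2 ratio of the row gene to the column gene; red is a higher ratio in D3TA, blue a lower one, and an asterisk marks ratios whose 3 D3TA and 3 WT values do not overlap. The ratios of the first 6 genes to the last 3 differ by 2.41 to 4.58, and those among the first 6 by at most 1.58 (Mpo to Ctsg).

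Across the 6 libraries the 6 genes followed each other, with Pearson r between 0.948 and 0.995 on the log2 scale, given as a description over points that share genotype and library. Mpo had r = -0.04 with Serpinb1a, 0.06 with Cst7 and -0.56 with Srgn. Of 12324 genes whose normalized count averaged 50 or more, the 10 most like the mean of the 5 enzymes over 6 libraries were Chil3 (r = 0.997), Kbtbd6, Gm5483, Trem3, Sgms2, Ngp, Itgb2l, Ska3, Pimreg and Lilr4b (r = 0.990). Those most like Serpinb1a were Epb41l4aos, Snhg8 and Med21 (0.982 to 0.989), those most like Cst7 were Car13, Sirpb1c and Gm15433 (0.967 to 0.982), and those most like Srgn were Ngly1, Tgfb3 and Zfp386 (0.991 to 0.997).

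The genes that build or control azurophil granule proteins were read next, from lists described by counts beside the background shares above; limma called 0 genes in each list. Of 10 transcription factors of the granulocyte precursor, 6 were above 0 and 4 below, with a median of 0.18 (log2). Cebpe, a factor of the promyelocyte to myelocyte step, was at 1867, 1234 and 217 in D3TA and at 48.7, 0 and 130 in WT, and Gfi1, a repressor needed for neutrophil formation, at 533, 380 and 188 against 112, 149 and 156. Groups did not overlap for these 2 of the 10. Spi1, which encodes PU.1, had overlapping groups at 2938, 2294 and 2672 against 3243, 2788 and 3152, and Myb was at 1869, 861 and 375 against 289, 481 and 353.

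Of 14 genes for maturation and sorting of granule proteins, 0 had groups that did not overlap, and the median was 0.06. Among these, Ctsc encodes cathepsin C, the dipeptidase that activates the granule serine proteases. It was at 2446, 3837 and 8268 in D3TA and at 4643, 5830 and 4032 in WT, so it was lowest in the library with the most protease RNA. This order was not particular to Ctsc. The 11 cysteine cathepsins, Ctsc among them, summed to 33106, 50190 and 79920 in D3TA and 61479, 58057 and 73178 in WT. The 2 members with the smallest p were the chaperone gene Canx (log2 difference 0.47) and Ganab, for a glucosidase of the endoplasmic reticulum (0.40).

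Of 23 tested genes for lysosomal and membrane proteins of these granules, 9 were above 0 and 14 below, with a median of -0.10. Galns, a sulfatase of lysosomes, was at 770, 680 and 481 in D3TA and 418, 245 and 360 in WT, the 1 of 23 whose groups did not overlap, against 8.18% higher and 6.84% lower over all tested genes. Of 19 tested genes for the chondroitin sulfate chains that serglycin carries, 10 were above 0 and 9 below (median 0.13), and 1 had groups that did not overlap. That gene was Chst3, a sulfotransferase, at 232, 833 and 725 in D3TA and 1501, 1065 and 905 in WT. Chst13, another sulfotransferase, was at 69.6, 29.3 and 12.97 in D3TA and at 0, 0 and 15.5 in WT, with overlap.

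Among 26 tested genes for other protease inhibitors 11 were above 0 and 15 below, with a median of -0.08, and groups did not overlap with D3TA higher in 2 and lower in 3. Wfdc21 was at 3814, 4470 and 632 in D3TA and 108, 208 and 227 in WT (log2 difference 3.67 ± 0.65 SE, limma adjusted p = 0.0977). Spint2, a Kunitz-type inhibitor of cell surface serine proteases, was at 1096, 1523 and 1694 against 2718, 2608 and 3358 (log2 difference -1.02, limma adjusted p = 0.290). Slpi, a secreted inhibitor of elastase and cathepsin G, had overlapping groups at 3348, 7996 and 2266 against 4415, 2199 and 6742; it was named after its values were seen. Of 11 cysteine cathepsins, the kind of protease that cystatin F inhibits, 2 were above 0 and 9 below, with a median of -0.47, and 1 (Ctsk) had groups that did not overlap, at 51.4, 66.7 and 51.0 against 83.1, 94.0 and 118.

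Serine proteases and other granule proteases of mast cells, basophils and cytotoxic cells included 10 tested genes, of which 7 were above 0 and 3 below (median 0.60). Prss34, a basophil protease, was at 390, 337 and 291 in D3TA and 124, 41.4 and 89.9 in WT, and Mcpt8, a basophil protease encoded near Ctsg, at 170, 202 and 227 against 65.0, 16.8 and 54.1. Groups did not overlap for these and for Cpa3, the 3 such genes of the list. Unlike the azurophil enzymes, Prss34 and Mcpt8 varied little across the D3TA libraries. Prss34, Mcpt8 and Cpa3 are themselves in the mast cell and basophil marker list, so that list is no separate result for them. Its sum was 1622, 1328 and 1242 in D3TA and 355 to 373 in WT. The mean log2 level ran the other way within D3TA, at 5.37, 5.80 and 6.71, against 4.35, 4.11 and 4.94 in WT. Of its 9 markers 6 were higher in each D3TA library, these 3 among them, and Fcer1a and Ms4a2 were at 0 in WT-2. The mast cell proteases Cma1 and Tpsb2 had overlapping groups. Cma1 was at 2.14, 8.08 and 123 in D3TA and 8.60, 112 and 38.7 in WT, the 1 marker below 0 (log2 difference -1.20). Tpsb2 was at 2.14, 10.1 and 201 against 1.91, 57.1 and 17.4.

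Genes of later granules were higher in D3TA on the same scale. Of 10 specific granule genes, all were above 0, 8 without overlap (median 3.65), and of 10 gelatinase granule and late neutrophil genes, all were above 0, 8 without overlap (median 2.82). Ngp, a specific granule protein, was at 66802, 34378 and 9867 in D3TA and 2009, 1300 and 2286 in WT, and Ltf, which encodes lactoferrin, at 34586, 19632 and 4024 against 1043, 722 and 686. The mean log2 level of the 5 enzymes minus that of the specific granule genes was -0.63, -0.83 and -0.56 in D3TA. In WT it was -1.39, -1.31 and -1.09. The groups did not overlap, with D3TA higher, but this depends on the make-up of the list. Cybb (log2 difference 0.87), Olfm4 (1.78) and Orm1 (2.15) differed least. The rest of the list was at 2.57 (Hp) to 4.18 (Lcn2), and the 5 enzymes at 2.79 to 4.38. A score without Cybb, Olfm4 and Orm1 was not computed. For Ngp and Mpo alone the groups overlapped, since Ngp to Mpo was 4.31, 4.10 and 4.02 in D3TA and 6.28, 3.90 and 6.88 in WT. Against the late neutrophil genes the same measure was 1.02, 0.38 and 0.43 in D3TA and -0.79, 0.95 and -0.35 in WT, with overlap.

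Marker lists of whole cell types were set beside the enzymes. The 7 neutrophil markers all belong to the gelatinase granule and late neutrophil list above as well, so they are no separate result. Their sum was 252989, 302966 and 52205 in D3TA and 7729, 8094 and 20284 in WT. Of these markers 7 of 7 were above 0 and 5 of 7 without overlap, and Mmp8 was at 0 in WT-2. S100a8 and S100a9 make up most of that sum and were highest in D3TA-2, whereas the other 5 markers, Csf3r, Cxcr2, Retnlg, Ly6g and Mmp8, were highest in D3TA-1, as were the 5 enzymes and Ms4a3. The monocyte markers, relevant to Ms4a3 and Mpo, summed to 13998 to 16722 in D3TA and 8311 to 10597 in WT. Of the 7 markers 5 were above 0 and 2 below, with log2 differences from -1.19 to 2.84, and 4 were higher without overlap. Stem and progenitor markers summed to 3822, 7808 and 13184 in D3TA and 7339, 7663 and 6282 in WT, which is the reverse of the enzyme order within D3TA. Their mean log2 level changed less, at 7.47, 7.68 and 7.75 in D3TA and 8.04, 8.34 and 7.24 in WT. Of the 8 markers 3 were above 0 and 5 below (median -0.47), with 1 lower without overlap. NK and cytotoxic markers, cells that also express Cst7 and Srgn, summed to 1764, 2384 and 4047 in D3TA and 2149, 1957 and 4161 in WT. Cst7 and Srgn followed the order of that sum within D3TA but not within WT, where WT-2 had the lowest sum and the highest Cst7 and Srgn. That order within D3TA was not particular to NK markers. Sums of macrophage, dendritic cell and T cell markers also rose from D3TA-1 over D3TA-2 to D3TA-3. They went from 19214 to 39712, from 1868 to 4358 and from 3115 to 10951. B cell markers ran otherwise, at 11018, 34305 and 27665. The part of each cell type in the differences was not tested.

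Position was considered because Prss57, Prtn3 and Elane lie within one stretch of chromosome 10. Of 21 other protein-coding genes within 100 kb of them, 17 were tested, with a median of 0.25 (log2) against 0.06 for all tested genes. Among the 17, 13 were above 0 and 4 below, against 8486 above and 7078 below of all 15564. Limma called 0 of the 17, and 2 had groups without overlap, both higher in D3TA. Of all tested genes 8.18% were higher and 6.84% lower without overlap. The 2 genes were Palm, at 892, 371 and 265 against 220, 191 and 190, and Arid3a, at 978, 623 and 588 against 575, 388 and 243. An effect of position was not tested. Plppr3, which overlaps Prtn3 on the other strand, was at 676, 253 and 84.7 in D3TA and 64.0, 89.5 and 27.1 in WT, and Fstl3 overlaps Prss57 on the other strand. Because the counting is not stated to use strand, reads from such a pair cannot be told apart. Cfd, the gene for complement factor D in the same stretch, was at 5.36, 6.06 and 47.5 in D3TA and 0, 1048 and 63.8 in WT, a pattern unlike that of the enzymes.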

How the data were processed

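Each of 3 D3TA and 3 WT mice gave 1 spleen cell RNA library. HISAT2, DESeq2, Trim Galore, FastQC, CASAVA and the build mm10 are named in the submitters' processing notes; the counting program is not given in the sources used here. The deposited values are a signal, gene counts scaled by 1 factor for each library, as the values show: whole reads were recovered within 0.001 for 100% of 149436 values. Counting errors of single values cover read sampling only, and the labels describe no molecular identifiers.

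limma 3.58.1 was fitted to log2 of the value plus 1 (robust empirical Bayes with trend, genotype only, Benjamini-Hochberg at 0.05, 2-sided) over 15564 genes. The pseudocount understates differences of low genes, and a fold is 2 raised to the difference. Symbols, exons and coordinates came from GENCODE M21, which held 24895 of 24906 identifiers. Alternatives were other scalings, filters, pseudocounts of 0.5 and 5, edgeR 4.0.16, DESeq2 1.42.0, limma-voom, single libraries left out, a replicate block, and terms for Y-linked reads or hemoglobin above 5%. On simulated data for this comparison (15564 genes, 3 runs, dispersion 0.02) the test recovered 100 of 100 genes changed 4-fold and 99 to 100 of 100 changed 16-fold, with 10 to 16 false calls; the common dispersion of the real libraries was 0.205, so recovery there was not checked. R 4.3.3 and Python 3.11.15 were used.

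The genes, lists and motifs were chosen with earlier results of these data known. Named genes are the 9, the 2 with the smallest p of each list, the genes most alike across libraries, and neighbours. Ctsc, Spi1, Myb, Cpa3 and Slpi were named after their values were seen. So were the specific granule genes and marker genes that are named outside this rule. One gene that the rule names is not reported here. P-values measure the spread between these mice.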

Additional observations from a re-analysis of the deposited data

How the results depend on the processing

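The 6 genes kept groups that did not overlap under each scaling and with each library left out, and without D3TA-1 the count was 7, with Cst7 added. Their log2 differences were 3.78 to 5.11 for Mpo, 3.38 to 4.53 for Elane, 3.03 to 4.56 for Prtn3, 2.23 to 3.40 for Ctsg, 2.92 to 4.13 for Prss57 and 2.56 to 3.92 for Ms4a3 over 23 settings.

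The number of all genes called, 0 in the limma test, was 44 with no filter, 472 with DESeq2, 15 with a term for Y-linked reads and 11 with a term for hemoglobin share, and 0 to 306 with 1 library left out, the 306 without D3TA-3. Of the 9 genes, 0 were called in the limma test, 3 (Mpo, Elane and Prss57) with no filter, 6 with DESeq2, 5 (not Prss57) with the Y-linked term, 2 (Mpo and Elane) with the hemoglobin term, and 0 to 6 with 1 library left out, the 6 without D3TA-3. The cause was not tested. The 17 other settings, edgeR and limma-voom among them, gave 0. With 1 library left out Serpinb1a was at -0.38 to 0.042, Cst7 at -0.024 to 0.75 and Srgn at -0.39 to 0.085 (log2). The sign turned without D3TA-3 for Serpinb1a and Cst7 and without D3TA-1 for Srgn. The number of ratios without overlap, 23, was 23 to 28 across pseudocounts and single libraries left out.

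Same-numbered libraries had correlations of -0.06, -0.0046 and -0.13 in their deviations from the group means. Differently numbered libraries ran from -0.17 to 0.17. With 3 mice per group these values cannot show whether replicate numbers pair the mice. With the replicate number as a block 0 genes were called, and the smallest adjusted p was 0.122. Prss57 in WT rests on 15 to 33 reads per library, which limits its fold.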
